A study of Mus musculus with 12 samples.

Results

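The collagens and laminins are the structural proteins of connective tissue and of basement membranes, the thin matrix sheets under epithelia and around vessels. The genes described here are the protein-coding genes of the GENCODE M21 annotation whose symbol is that of a numbered collagen chain (Col, number, a, number) or of a numbered laminin chain (Lama, Lamb or Lamc with a number). The rule used names alone and no measured value. It found 55 genes among 55401 gene identifiers, 21897 of them protein-coding. Of the 55, 44 encode collagen chains and 11 encode laminin chains.

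Whole kidneys of 12 male C57BL6 mice, 1 library per mouse, were profiled by RNA-Seq. The 6 control mice received vehicle, 15% 2-hydroxypropyl-beta-cyclodextrin, by a single intraperitoneal injection, and the 6 treated mice received SK-124 at 40 mg/kg by the same route. The study describes SK-124 as an inhibitor selective for SIK2 and SIK3, salt-inducible kinases that act downstream of parathyroid hormone signaling in kidney tubule cells. All mice were 8 weeks old. The time from injection to collection of the kidneys is not given for these libraries in the sources used here. A whole kidney mixes tubule cells, glomeruli, vessels and interstitium, and in such bulk tissue fewer cells of a type and less RNA per cell cannot be told apart.

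Collagen chains wind around each other into a helix, a shape that needs glycine as the first residue of each short repeat of the chain (Gly-X-Y). Fibrillar collagens assemble into fibrils of the interstitium, and most carry 1 long uninterrupted helix. Type IV collagens have an interrupted helix and assemble into the sheets of basement membranes. Laminins are crosses of 1 alpha, 1 beta and 1 gamma chain that start basement membrane assembly. In the mature glomerular filter the network is made of the alpha-3, alpha-4 and alpha-5 chains of type IV collagen and of the laminin of Lama5, Lamb2 and Lamc1, while most other basement membranes use the alpha-1 and alpha-2 chains of type IV collagen.

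The glycine repeat is visible in the coding sequence, and a stretch of one chain that rose and one that fell is shown because they belong to these different architectures. Both are in frame and run 5′ to 3′, with glycine codons in capitals.
Col4a3, codons 43 to 72: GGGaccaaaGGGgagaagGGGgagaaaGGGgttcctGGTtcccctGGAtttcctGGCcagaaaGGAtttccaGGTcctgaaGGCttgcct
Col1a2, codons 97 to 126: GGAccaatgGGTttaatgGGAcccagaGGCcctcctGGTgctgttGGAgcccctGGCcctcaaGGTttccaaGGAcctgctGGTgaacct
The longest uninterrupted run of glycine triplets was 339 in Col1a2, of 1372 codons, and 39 in Col4a3, of 1669 codons. Counting runs of at least 5 triplets, Col1a2 had 2 and Col4a3 had 24. The fibrillar chains Col24a1 and Col27a1 had shorter longest runs, of 216 and 217 triplets, and 3 such runs each. The 6 type IV genes each had 22 to 27 such runs, with a longest run of 39 to 66 triplets, and none of the 11 laminin genes had one.

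The 6 type IV genes lie as 3 pairs, and within each pair transcription starts between the genes and runs outward. In GENCODE M21 (GRCm38), Col4a1 (chromosome 8, 11198423 to 11312826, minus strand) and Col4a2 (chromosome 8, 11312805 to 11449287, plus strand) overlap by 22 bases at their starts. Col4a4 (chromosome 1, 82448423 to 82586849, minus strand) and Col4a3 (chromosome 1, 82586921 to 82722059, plus strand) are 71 bases apart. Col4a6 (chromosome X, 141165403 to 141474076, minus strand) and Col4a5 (chromosome X, 141475385 to 141689234, plus strand) are 1308 bases apart. The RefSeq promoter windows (GRCm38.p6, 250 bases before to 50 bases after a start) of one gene of each pair are shown, since the genes of each pair start close together. Capitals mark a GC box (GGGCGG) or a CCAAT box, read on either strand.
Col4a1, chr8:11312777-11313076, minus strand: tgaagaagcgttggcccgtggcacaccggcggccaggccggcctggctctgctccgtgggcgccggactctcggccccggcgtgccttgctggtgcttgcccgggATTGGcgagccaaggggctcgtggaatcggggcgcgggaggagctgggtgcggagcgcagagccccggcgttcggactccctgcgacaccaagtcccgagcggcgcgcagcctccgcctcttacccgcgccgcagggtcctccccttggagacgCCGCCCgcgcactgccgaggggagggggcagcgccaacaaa
Col4a4, chr1:82586800-82587099, minus strand: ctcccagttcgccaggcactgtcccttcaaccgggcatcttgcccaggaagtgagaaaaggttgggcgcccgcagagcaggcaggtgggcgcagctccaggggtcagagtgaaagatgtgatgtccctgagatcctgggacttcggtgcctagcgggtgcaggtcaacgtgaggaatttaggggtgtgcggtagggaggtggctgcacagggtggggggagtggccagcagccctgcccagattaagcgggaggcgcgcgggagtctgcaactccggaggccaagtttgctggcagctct
Col4a5, chrX:141475169-141475468, plus strand: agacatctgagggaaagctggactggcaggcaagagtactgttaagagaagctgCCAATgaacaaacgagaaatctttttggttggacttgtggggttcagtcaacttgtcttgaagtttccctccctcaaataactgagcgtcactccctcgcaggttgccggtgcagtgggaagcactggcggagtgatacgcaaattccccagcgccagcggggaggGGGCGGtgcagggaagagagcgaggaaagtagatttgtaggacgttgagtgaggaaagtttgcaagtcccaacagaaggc
The window of Col4a4 holds the annotated start of Col4a3, and that of Col4a1 holds the annotated start of Col4a2. G and C made up 74.0% of the Col4a1 window, 63.3% of that of Col4a4 and 52.7% of that of Col4a5. Windows were at hand for 40 of the 55 genes, 44 in all. A GC box was found in 26 of them (59.1%) and in 35.7% of all 32851 windows, a CCAAT box in 31.8% against 37.4%, and the full cAMP response element TGACGTCA in 2.3% against 1.8%. These matches are descriptions of letters, not binding sites.

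The type IV chains were among the most abundant of the 55 genes. Levels of different genes were compared in TPM, the share of transcripts scaled to gene length by the authors' RSEM. In vehicle mice 8 genes averaged over 10 TPM, 20 lay between 1 and 10 TPM, and 27 lay under 1 TPM. Col4a1 led with 39.5 ± 6.13 TPM (SD, n = 6), followed by Col4a3 (27.1 ± 3.32), the endostatin precursor Col18a1 (24.4 ± 2.83), Col4a2 (19.0 ± 2.25) and Col4a4 (18.0 ± 1.18). Next came Lama5 (13.8 ± 2.35 TPM), Lamb1 (13.1 ± 2.07), Col15a1 (12.4 ± 3.24), Lamb2 (9.51 ± 1.04), Col27a1 (9.24 ± 1.69), Lamc1 (8.12 ± 1.13) and Col1a2 (7.79 ± 1.29). Col4a1 was above Col4a3, Col18a1 above Col4a2, and Col15a1 above Lamb2 in 6 of 6 vehicle mice (two-sided exact sign-flip test on log2 TPM, p = 0.0312 each, the smallest 6 mice allow, adjusted over the 11 neighbouring pairs p = 0.114). No neighbouring pair passed after adjustment, so this order describes means. The 6 type IV genes made up 42.1% ± 2.21 of the summed TPM of the 55 genes in vehicle mice and 48.8% ± 2.06 in SK-124 mice (SD, n = 6 each). Their summed level was 109 ± 9.47 TPM and 115 ± 19.4 TPM in these groups, while that of all 55 genes was 258 ± 23.0 TPM and 236 ± 40.4 TPM.

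**Figure D1:**
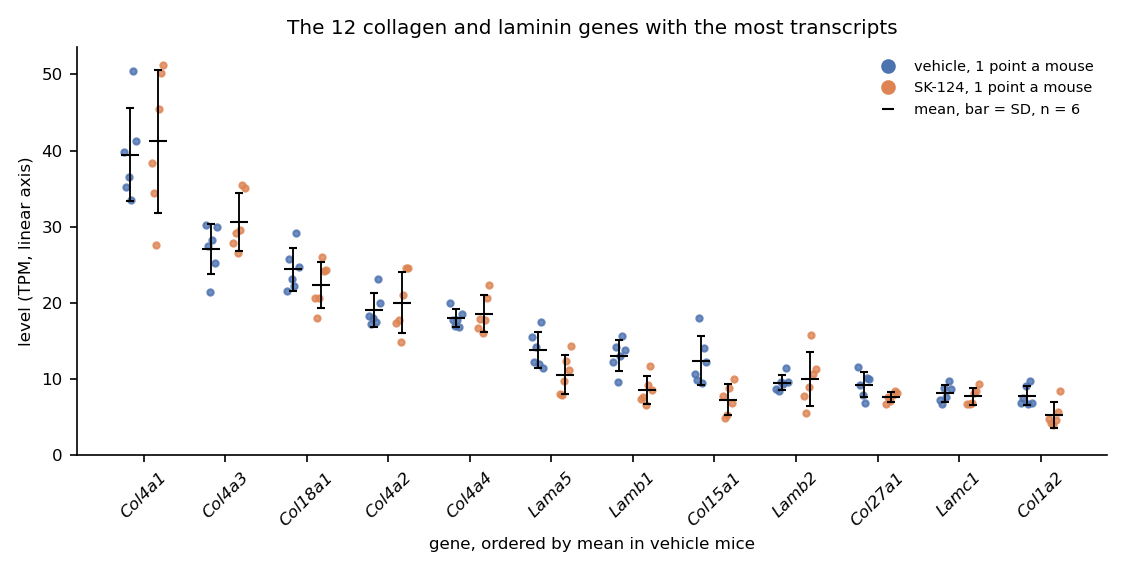
TPM (linear axis from 0) of the 12 collagen and laminin genes with the highest mean in vehicle mice; each point is a mouse, the dash is the mean and the bar the SD of 6 mice. Col4a1 leads at 39.5 TPM in vehicle mice, and Lamb1 and Col15a1 sit lower in SK-124 mice (8.49 and 7.26 TPM) than in vehicle mice (13.1 and 12.4 TPM).

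After SK-124, genes of both families moved in both directions, by small amounts. Of the 55 genes, 41 had enough counts to be tested with edgeR's quasi-likelihood test, and 15 of those (36.6%) passed a false discovery rate (FDR) of 0.05, against 24.4% of all 14159 genes tested. 5 were higher, or 12.2% of the 41 (10.8% of all genes tested were higher), and 10 were lower, or 24.4% (13.5% of all genes tested were lower). The median log2 fold change was -0.09 over the 41 genes and -0.01 over all genes. The highest change was 0.84 and the lowest -0.71 on the log2 scale. The groups did not overlap for 3 of the 41, Col4a3 and Col6a3 among them, against 13.0% of all genes tested.

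The remaining 14 genes were left out by the filter on low counts: Col2a1, Col6a4, Col6a5, Col8a2, Col9a1, Col9a2, Col9a3, Col10a1, Col11a1, Col11a2, Col17a1, Col22a1, Col25a1 and Col28a1. None averaged over 0.233 TPM in either group or collected more than 99 counts over the 12 mice, and each had at least 1 count. Col2a1 and the type IX and type XI chains among them are known from cartilage. Fitted without the filter on low counts, 13 of the 14 did not pass, with SEs of 0.37 to 1.07. The exception was Col11a2, with 0.142, 0.224 and 0.562 CPM in vehicle mice and 0.351, 0.571 and 0.862 CPM in SK-124 mice, 3 of them above every vehicle mouse (log2 fold change 1.16 ± 0.35, FDR = 0.0237 in that fit), from 99 counts in all.

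The libraries were of even depth, with 19244227 to 19771802 expected counts per mouse. The 10 most abundant genes took 44.4 to 46.8% of the counts in SK-124 mice 1 to 3, but 38.6 to 40.2% in SK-124 mice 4 to 6 and 39.9 to 43.2% in vehicle mice, so results are also given with SK-124 mice 1 to 3 or 4 to 6 alone. With mice 1 to 3 alone against all vehicle mice, 2 of the collagen and laminin genes were higher and 10 lower, where 7.34% of all genes tested were higher and 8.50% lower. With mice 4 to 6 alone, 6 were higher and 5 lower, where the shares of all genes were 8.06% and 8.67%. The scaling matters as well. CPM values, counts relative to a fixed library total, are scaled here with TMM, which sets libraries level by the bulk of their genes, whereas scaling to library totals alone moved the median of all genes by -0.11, to -0.12, and left 1 of the genes higher and 13 lower, with 777 higher and 3058 lower among all genes against 1536 and 1917. Proximal tubule markers showed the tissue to be kidney, with a summed level of 7040 to 7970 CPM in vehicle mice and 6510 to 8380 CPM in SK-124 mice and 0 of 5 called.

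**Figure D2:**
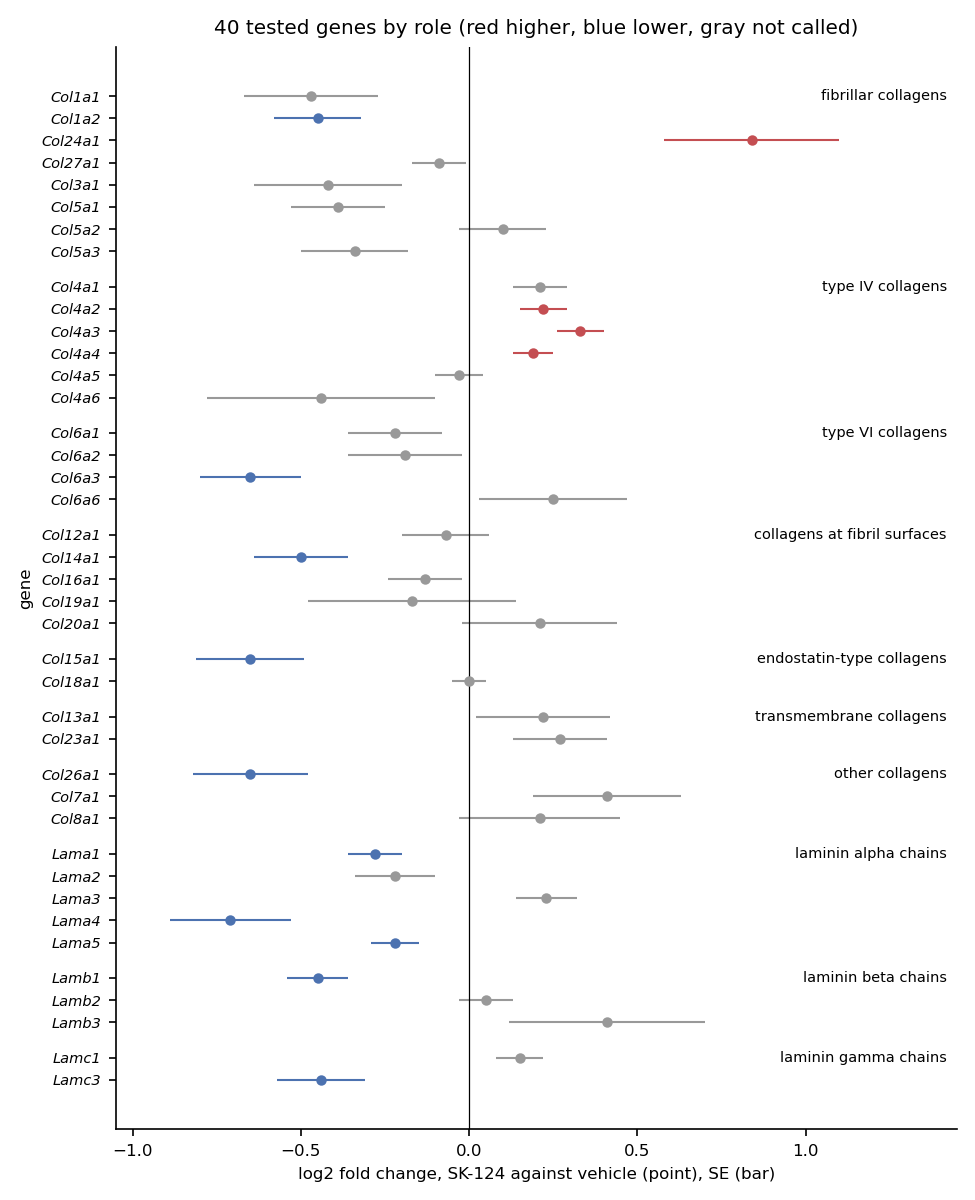
Log2 fold change, SK-124 against vehicle, of 40 tested genes grouped by role; points are edgeR estimates, bars are standard errors, and color marks genes past an FDR of 0.05. The type IV chains Col4a2, Col4a3 and Col4a4 sit at 0.19 to 0.33, and the lowest point is Lama4 at -0.71.

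Type IV collagens were higher in 3 of 6 genes and lower in none, with a median log2 fold change of 0.20. Col4a3, the alpha-3 chain of the glomerular network, moved furthest among those called. In vehicle mice it measured 211 CPM at the lowest, 250 at the median and 272 at the highest, and in SK-124 mice 278, 310 and 334. All 6 SK-124 mice were above every vehicle mouse. The log2 fold change was 0.33 ± 0.07 (SE; FDR = 0.00255), and the value was 0.34 with SK-124 mice 1 to 3 (FDR = 0.021) and 0.32 with mice 4 to 6 (FDR = 0.024). Scaled to library totals Col4a3 came to 0.21 (FDR = 0.0567), while the median of all genes moved by -0.11, and on log2(TPM + 1) with limma it came to 0.17 (FDR = 0.253), with a median of all genes of -0.11.

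Col4a4, its head-to-head partner, changed less. Its lowest, median and highest values were 168, 188 and 207 CPM in vehicle mice and 192, 213 and 237 CPM in SK-124 mice. 4 of the 6 SK-124 mice were above every vehicle mouse, and the ranges overlapped. The fitted log2 change was 0.19 ± 0.06 (FDR = 0.0331), but the call was lost when vehicle mouse 2, 5 or 6 or SK-124 mouse 2 or 6 was left out (highest FDR 0.0815), and it was 0.08 with library totals (FDR = 0.44) and 0.04 on log2(TPM + 1) with limma (FDR = 0.82).

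Col4a2, which pairs with Col4a1 in most basement membranes, measured 116, 124 and 144 CPM in vehicle mice and 120, 149 and 164 CPM in SK-124 mice. 4 of the 6 SK-124 mice were above every vehicle mouse. On the log2 scale the change was 0.22 ± 0.07 (FDR = 0.0369). It was 0.32 with SK-124 mice 4 to 6 (FDR = 0.00815) but 0.12 with mice 1 to 3 (FDR = 0.403), 0.11 with library totals (FDR = 0.423) and 0.06 on log2(TPM + 1) with limma (FDR = 0.78). The call was lost when vehicle mouse 1, 2, 4 or 6 or SK-124 mouse 2, 4, 5 or 6 was left out (highest FDR 0.092). Col4a1 had a similar estimate, 0.21 ± 0.08, that did not pass (FDR = 0.0811), and its values were 171, 188 and 215 CPM in vehicle mice and 176, 222 and 254 CPM in SK-124 mice. For Col4a1 also 4 SK-124 mice were above every vehicle mouse, and the estimate was 0.08 with SK-124 mice 1 to 3 and 0.34 with mice 4 to 6 (FDR = 0.0105). The reads of this pair may be shared over the 22 bases where the genes overlap, since the use of strand in counting is not stated.

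Neither gene of the X-linked pair was called. Col4a5, the alpha-5 chain that joins Col4a3 and Col4a4 in one molecule, ranged from 22.4 to 28.6 CPM in vehicle mice and from 21.8 to 26.6 CPM in SK-124 mice, with a log2 fold change of -0.03 ± 0.07 (FDR = 0.79). Col4a6, a chain of a few basement membranes such as Bowman's capsule, was low (0.172 TPM in vehicle mice) with -0.44 ± 0.34 (FDR = 0.384).

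As the alpha-3 and alpha-4 chains are made by podocytes in the glomerulus, podocyte markers were read beside them. Of 6 markers 1 was higher, none was lower and none was at 0. Nphs1 (nephrin, a slit diaphragm protein) and Wt1, which define podocytes, had -0.01 each (FDR = 0.982 and 0.976). Their summed level was 223 to 348 CPM in vehicle mice and 237 to 289 CPM in SK-124 mice, with a median log2 fold change of -0.02. Their part in the type IV values was not tested.

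**Figure D3:**
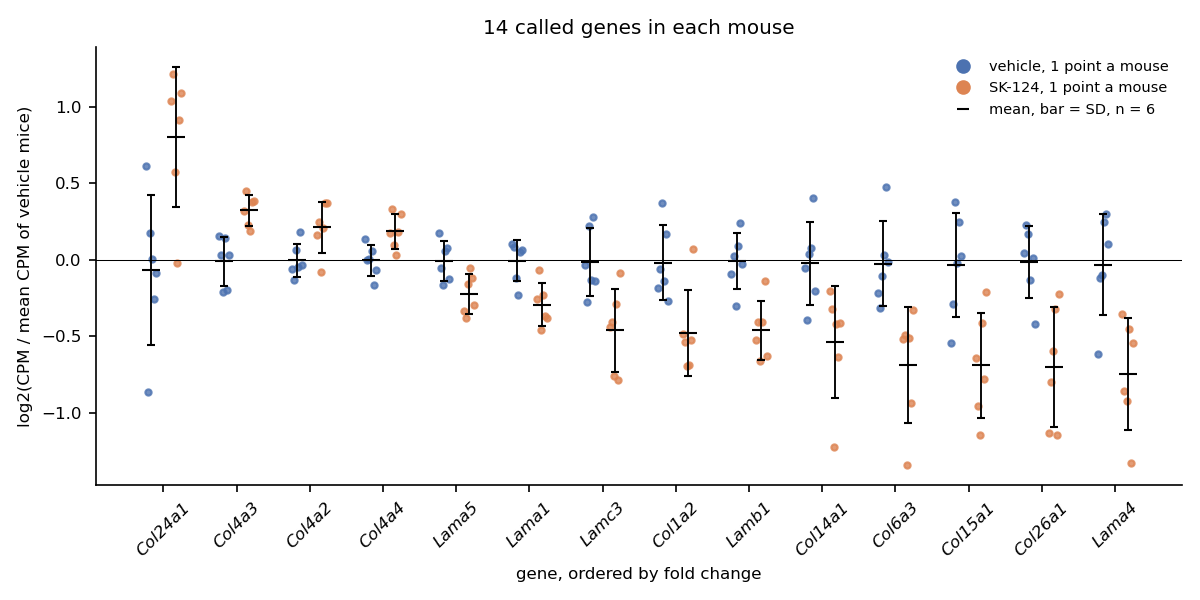
14 genes past an FDR of 0.05, each mouse as a point on log2(CPM divided by the mean CPM of the vehicle mice); dashes are means of the log2 values and bars their SD (n = 6). For Col4a3 every SK-124 mouse lies above every vehicle mouse and for Col6a3 every SK-124 mouse lies below, while the groups overlap for the other 12 genes drawn.

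Among fibrillar collagens, whose chains build the interstitial fibrils, 8 of 11 were tested, with a median log2 fold change of -0.36. Of the 8, 1 was higher and 1 lower (12.5% each, near the 10.8% and 13.5% of all genes tested). Col1a2 (chromosome 6, 4504814 to 4541544, plus strand), the alpha-2 chain of type I collagen, fell. It measured 35.4, 39.9 and 55.3 CPM in vehicle mice and 26.4, 29.6 and 44.8 CPM in SK-124 mice. 5 of the 6 SK-124 mice were below every vehicle mouse, and SK-124 mouse 6 gave the high value. The log2 fold change was -0.45 ± 0.13 (FDR = 0.0158), with -0.57 for SK-124 mice 1 to 3 (FDR = 0.00835) and -0.34 for mice 4 to 6 (FDR = 0.192).

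The other chain of type I collagen, Col1a1, had an estimate of the same size that did not pass, -0.47 ± 0.20 (FDR = 0.0989). Its values were 26.0, 30.7 and 56.7 CPM in vehicle mice and 18.5, 21.1 and 39.0 CPM in SK-124 mice, with 4 SK-124 mice below every vehicle mouse. Col3a1, the type III chain of pliable fibrils, came to -0.42 ± 0.22 (FDR = 0.178), and leaving out SK-124 mouse 6, which had 42.2 CPM against 13.9 to 22.8 CPM in the other SK-124 mice, took it past the threshold at -0.70 (FDR = 0.00274). Its neighbour Col5a2, 24614 bases away on the other strand, had 0.10 ± 0.13 (FDR = 0.646), whereas Col5a1, the chain that combines with it in type V collagen, had -0.39 ± 0.14 (FDR = 0.0632) and Col5a3 -0.34 ± 0.16 (FDR = 0.129). Col27a1, a fibrillar chain of cartilage that was among the 12 most abundant here, had -0.09 ± 0.08 (FDR = 0.463).

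Col24a1, a minor fibrillar chain, was the only fibrillar collagen called higher, and from few counts. It measured 0.248, 0.44 and 0.691 CPM in vehicle mice and 0.446, 0.889 and 1.05 CPM in SK-124 mice, from 146 counts over all 12 mice. 4 SK-124 mice were above every vehicle mouse. The fitted log2 change was 0.84 ± 0.26 (FDR = 0.0249), and the call was lost without vehicle mouse 2 or 5 or SK-124 mouse 2 or 6 (highest FDR 0.0586) and with SK-124 mice 4 to 6 alone (0.74, FDR = 0.16). In TPM, which RSEM divides by a gene length that it estimates in each library, it was 0.182 ± 0.121 in vehicle mice and 0.185 ± 0.0596 in SK-124 mice, with 0.01 on log2(TPM + 1) (FDR = 0.942).

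Fibroblasts and pericytes make most interstitial collagen. Of their 7 markers 2 were lower, Pdgfrb (a growth factor receptor of pericytes) at -0.93 ± 0.13 (FDR = 5.39e-05) and Cspg4 at -0.31 ± 0.09 (FDR = 0.0193), and none was higher or at 0. Pdgfra and Dcn, markers of fibroblasts, had -0.10 and -0.04 and were not called. The summed level was 118 to 150 CPM in vehicle mice and 91.0 to 121 CPM in SK-124 mice. Of 4 smooth muscle markers, Tagln (0.55, FDR = 0.00519) and Acta2 (0.41, FDR = 0.0452) were higher. Myh11 (-0.05, FDR = 0.861) and Cnn1 (0.74, FDR = 0.161) were not called. The summed level of the 4 was 33.2 to 51.2 CPM in vehicle mice and 45.4 to 66.8 CPM in SK-124 mice, with none at 0. Their part in the collagen values was not tested.

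Type VI collagen, which forms beaded microfilaments next to cells, had 1 of 4 tested genes lower (25.0%, against 13.5% of all genes tested). That gene was Col6a3 (chromosome 1, 90765923 to 90843971, minus strand), its large alpha-3 chain, with 10.4, 12.4 and 18.0 CPM in vehicle mice and 5.10, 9.05 and 10.3 CPM in SK-124 mice. All 6 SK-124 mice were below every vehicle mouse, by a narrow margin between 10.3 and 10.4 CPM. On the log2 scale the change was -0.65 ± 0.15 (FDR = 0.00456), and the call held in all 24 alternatives (-0.76 to -0.38, highest FDR 0.037). Its partners in the same molecule were not called, Col6a1 at -0.22 ± 0.14 (FDR = 0.284) and Col6a2 at -0.19 ± 0.17 (FDR = 0.454). Col6a6, a chain related to Col6a3, had 0.25 ± 0.22 (FDR = 0.453). Col6a5, 27917 bases from Col6a6, and Col6a4, 28810 bases beyond Col6a5, were left out by the filter.

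Of the 5 tested collagens that sit on fibril surfaces, Col14a1 alone was called. It measured 19.2, 25.0 and 33.3 CPM in vehicle mice and 10.8, 18.8 and 21.8 CPM in SK-124 mice, and 4 SK-124 mice were below every vehicle mouse. The log2 fold change was -0.50 ± 0.14 (FDR = 0.0163), or -0.52 with SK-124 mice 1 to 3 (FDR = 0.0972) and -0.48 with mice 4 to 6 (FDR = 0.0315). Col12a1, Col16a1, Col19a1 and Col20a1 had log2 fold changes of -0.17 to 0.21. Col19a1 lies 9205 bases from Col9a1, one of the untested genes.

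The endostatin-type collagens are named for the fragment cut from Col18a1. Col15a1 (chromosome 4, 47208161 to 47313167, plus strand), found where basement membranes of vessels and muscle meet the interstitium, measured 18.3, 26.8 and 34.8 CPM in vehicle mice and 12.1, 16.3 and 23.1 CPM in SK-124 mice. 4 SK-124 mice were below every vehicle mouse. Its log2 fold change was -0.65 ± 0.16 (FDR = 0.00553), -0.90 with SK-124 mice 1 to 3 (FDR = 0.00394) and -0.44 with mice 4 to 6 (FDR = 0.113). Col18a1, a widespread basement membrane collagen, ranged from 106 to 120 CPM in vehicle mice and from 106 to 122 CPM in SK-124 mice, with 0.00 ± 0.05 (FDR = 0.982). Col18a1 overlaps Slc19a1 on the opposite strand, and Slc19a1 itself had a mean of 1280 counts in vehicle mice.

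Col26a1, a short collagen with few glycine triplets, also fell. It measured 1.90, 2.59 and 2.97 CPM in vehicle mice and 1.15, 1.57 and 2.18 CPM in SK-124 mice, and 4 SK-124 mice were below every vehicle mouse. The fitted log2 change was -0.65 ± 0.17 (FDR = 0.0113), but on log2(TPM + 1) with limma it was -0.30 (FDR = 0.159), and with SK-124 mice 4 to 6 it was -0.50 (FDR = 0.135). The transmembrane collagens Col13a1 (0.22) and Col23a1 (0.27) and the anchoring fibril collagen Col7a1 (0.41, FDR = 0.202) and Col8a1 (0.21) were not called.

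All 11 laminin genes were tested, and 5 were lower (45.5%, against 13.5% of all genes tested), with a median log2 fold change of -0.22. Of the 5 alpha chains, which bind the cell receptors, 3 were lower (60.0%). Lama4, the alpha chain of vessel walls, measured 2.22, 3.41 and 4.17 CPM in vehicle mice and 1.35, 2.10 and 2.66 CPM in SK-124 mice. 3 of the 6 SK-124 mice were below every vehicle mouse. On the log2 scale the change was -0.71 ± 0.18 (FDR = 0.00686), and the call held in all 24 alternatives (-0.93 to -0.39, highest FDR 0.0469).

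Lama1, an alpha chain of embryonic basement membranes and of the adult proximal tubule, measured 11.1, 13.5 and 14.0 CPM in vehicle mice and 9.47, 10.5 and 12.4 CPM in SK-124 mice. 4 SK-124 mice were below every vehicle mouse. Its log2 fold change was -0.28 ± 0.08 (FDR = 0.0135), with -0.25 in SK-124 mice 1 to 3 (FDR = 0.131), and it was -0.65 on log2(TPM + 0.1) with limma (FDR = 0.0158).

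Lama5, the alpha chain of the mature glomerular and most tubule basement membranes, measured 54.6, 61.2 and 69.1 CPM in vehicle mice and 47.0, 52.3 and 59.0 CPM in SK-124 mice. 3 SK-124 mice were below every vehicle mouse. The log2 fold change was -0.22 ± 0.07 (FDR = 0.0329), and this call was among the least stable: it was lost without vehicle mouse 1, 4 or 5 or SK-124 mouse 1, 2 or 6 (highest FDR 0.0836) and with a correction for GC content (-0.11, FDR = 0.321). It was -0.14 with SK-124 mice 4 to 6 (FDR = 0.288) and -0.37 on log2(TPM + 1) with limma (FDR = 0.0691). Lama2, the alpha chain of muscle, had -0.22 ± 0.12 (FDR = 0.214), and Lama3, the alpha chain of epithelial anchoring, had 0.23 ± 0.09 (FDR = 0.0593).

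Of the beta chains, Lamb1, which most tissues use and which the maturing glomerulus replaces by Lamb2, gave the smallest FDR of the 55 genes. It measured 60.8, 74.9 and 88.6 CPM in vehicle mice and 47.3, 54.3 and 68.2 CPM in SK-124 mice. 5 of the 6 SK-124 mice were below every vehicle mouse. The fitted log2 change was -0.45 ± 0.09 (FDR = 0.00167), so that the fitted level fell by 26.7%. The call held in all 24 alternatives, from -0.62 to -0.37 with a highest FDR of 0.0483. Lamb2 had 0.05 ± 0.08 (FDR = 0.699), with 23.3 to 30.5 CPM in vehicle mice and 22.5 to 32.9 CPM in SK-124 mice, and the epithelial Lamb3 had 0.41 ± 0.29 (FDR = 0.351) from 493 counts in all. Lamb3 overlaps Hsd11b1 and G0s2 on the opposite strand, which had a mean of 1520 and 408 counts in vehicle mice against 36.8 for Lamb3.

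Of the gamma chains, Lamc1, the common one, had 0.15 ± 0.07 (FDR = 0.149). Lamc3, a gamma chain of few tissues, fell from 6.34, 7.26 and 9.34 CPM in vehicle mice to 4.46, 5.73 and 7.25 CPM in SK-124 mice. 5 SK-124 mice were below every vehicle mouse, and the log2 fold change was -0.44 ± 0.13 (FDR = 0.018). The value was -0.53 with SK-124 mice 1 to 3 (FDR = 0.0227), -0.35 with mice 4 to 6 (FDR = 0.16) and -0.34 with a correction for GC content (FDR = 0.0554).

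Endothelial cells make Lama4, Col15a1 and much of the Col4a1 and Col4a2 of vessels, so their markers were read beside these genes. Of 7 markers 1 was lower, Kdr (a receptor of vascular growth factor) at -0.85 ± 0.16 (FDR = 6.47e-04), and none was higher or at 0. Pecam1 and Cdh5, junction proteins that define endothelium, had 0.07 (FDR = 0.697) and 0.29 (FDR = 0.0978), while Emcn (-0.24), Plvap (-0.21), Egfl7 (-0.24) and Tie1 (-0.20) had negative values that did not pass. The median log2 fold change of the 7 was -0.21. Their summed level was 292 to 391 CPM in vehicle mice and 237 to 365 CPM in SK-124 mice, and their part in the laminin and collagen values was not tested.

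Each called gene was also compared by an exact permutation test, two-sided, of the log2(CPM + 0.5) values of 6 mice against 6. This test makes no use of the other genes' spread. The genes had been chosen by their FDR in the same mice, so small p-values were likely beforehand and give no independent support. Col4a3 and Col6a3 reached p = 0.00216, the smallest that the splits of 12 mice allow, and Lamb1 had an exact p of 0.00433. The largest exact p among the 15 called genes was 0.0325, for Col4a2. These p-values are not adjusted.

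Chains that share a molecule or a role were compared as the log2 ratio of their TPM within each mouse, for 10 pairs chosen after the fold changes had been seen (two-sided exact permutation test, p adjusted over the 10). 9 of the pairs are described here. The ratio of Col4a1 to Col4a2 was 2.07 in vehicle mice and 2.05 in SK-124 mice, a log2 difference of -0.02 (adjusted exact p = 0.839). The ratio of Col1a1 to Col1a2 was 0.679 and 0.671 (adjusted exact p = 0.911). The SD of the log2 ratio between mice was 0.07 to 0.10 for the type IV pair and 0.20 to 0.25 for the type I pair. A p that misses the threshold does not show that the partners moved alike.

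Other pairs shifted. The log2 ratio of Col4a3 to Col4a4 was 0.58 ± 0.13 in vehicle mice and 0.72 ± 0.05 in SK-124 mice (SD, n = 6; adjusted exact p = 0.0289), though the adjusted p rose to 0.0577 when 1 of 6 mice was left out (vehicle mouse 1, 2 or 5, or SK-124 mouse 1, 3 or 4). Col4a5 to Col4a3 went from -2.47 ± 0.21 to -2.82 ± 0.10 (adjusted exact p = 0.0216). Col15a1 to Col18a1 went from -1.01 ± 0.35 to -1.66 ± 0.29 (adjusted exact p = 0.0216). Lamb1 to Lamb2 went from 0.45 ± 0.25 to -0.19 ± 0.45 (adjusted exact p = 0.0432), so that in TPM Lamb1 was on average above Lamb2 in vehicle mice and below it in SK-124 mice. This last call was lost when any of 9 of the 12 mice was left out (vehicle mouse 1, 2, 4, 5 or 6 or SK-124 mouse 1, 3, 4 or 6; highest adjusted exact p = 0.0866). In SK-124 mice 2 and 5 Lamb1 stayed above Lamb2 in TPM, and SK-124 mouse 4 had the highest Lamb2 level (15.82 TPM). TPM also depends on the gene length estimated in each library. In CPM, Lamb1 was above Lamb2 in both groups. The values were 60.8 to 88.6 against 23.3 to 30.5 CPM in vehicle mice and 47.3 to 68.2 against 22.5 to 32.9 CPM in SK-124 mice. In all 4 pairs the ranges of the groups overlapped. The ratios of Col4a3 to Col4a1, Col6a3 to Col6a1 and Lama1 to Lama5 did not pass (adjusted exact p = 0.394 to 0.476), and that of Col6a3 to Col6a1 passed when taken from CPM (-0.44, adjusted exact p = 0.0433).

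**Figure D4:**
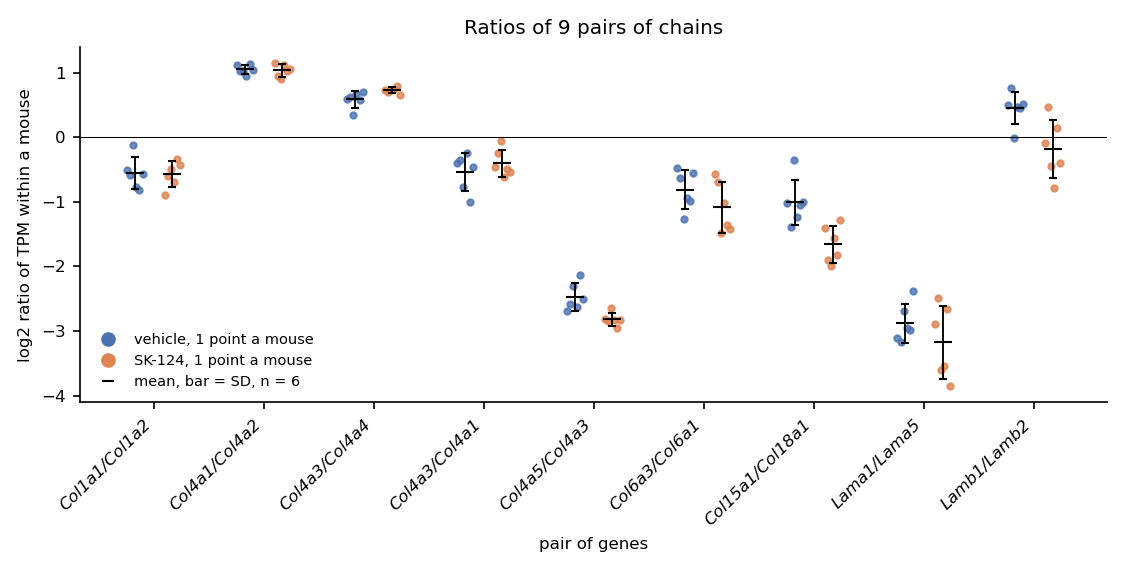
Log2 ratio of the TPM of 2 genes within a mouse, for 9 pairs; each point is a mouse, the dash the mean and the bar the SD (n = 6). Col4a1/Col4a2 stays near 1.05 and 1.03 in the 2 groups, whereas Col15a1/Col18a1 moves from -1.01 to -1.66.

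Across the 6 vehicle mice, the TPM of Col4a1 and Col4a2 rose and fell together on the log2 scale (Pearson's r = 0.97, exact permutation p = 0.00556; Spearman's rho = 0.943, exact permutation p = 0.0167), and r was 0.909 without the 2 mice farthest from the median. Col4a3 and Col4a4 had r = 0.801 (exact permutation p = 0.0167) and rho = 0.928 (exact permutation p = 0.0167) in vehicle mice, and 0.835 without 2 mice. In SK-124 mice the r of both pairs was 0.969 (exact permutation p = 0.0111 each), their rho was 0.886 (exact permutation p = 0.0333 each), and without 2 mice r was 0.934 and 0.973. For these type IV pairs the adjusted p of r over 8 relations was 0.0296 to 0.0334. Col1a1 and Col1a2 had r = 0.751 (exact permutation p = 0.0889) and rho = 0.943 (exact permutation p = 0.0167) in vehicle mice, and r = 0.937 (exact permutation p = 0.0472) and rho = 0.6 (exact permutation p = 0.242) in SK-124 mice, where r fell to -0.429 without 2 mice and so rested on those mice. Col1a1 and Col3a1 had r = 0.641 and 0.788 in the 2 groups (exact permutation p = 0.203 and 0.1) and rho = 0.714 in both (exact permutation p = 0.136), and without 2 mice r was 0.581 in vehicle mice and -0.0152 in SK-124 mice, so that the latter r too rested on those mice. The 2 genes of a pair share their library and its scaling, which can itself give a positive correlation.

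Around these genes stand the proteins that complete, modify, cut and read the matrix, taken as 6 lists. Of 16 tested basement membrane proteins other than collagens and laminins, 1 was higher and 6 were lower (6.25% and 37.5%, against 10.8% and 13.5% of all genes tested). The 4 with the smallest FDR were Nid2 (a nidogen, which links laminin to type IV collagen) at -0.41 ± 0.07 (FDR = 4.07e-04), Tinagl1 (a tubule basement membrane protein) at 0.51 ± 0.09 (FDR = 4.46e-04), Ntn4 (a netrin that binds laminin) at -0.46 ± 0.10 (FDR = 0.00232) and Egflam at -0.79 ± 0.20 (FDR = 0.00694). Egflam did not pass with SK-124 mice 1 to 3 (-0.52, FDR = 0.112) or on log2(TPM + 1) and log2(TPM + 0.1) with limma (-0.15, FDR = 0.263, and -0.34, FDR = 0.238). For Nid2 and Ntn4 every SK-124 mouse was below every vehicle mouse, and for Tinagl1 every one was above.

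Of 17 tested genes for collagen modification and folding, 1 was higher and 6 were lower (5.88% and 35.3%, against 10.8% and 13.5% of all genes tested). Serpinh1, the collagen chaperone of the endoplasmic reticulum, measured 56.3, 59.7 and 66.1 CPM in vehicle mice and 34.3, 41.0 and 50.4 CPM in SK-124 mice, without overlap (-0.55 ± 0.08, FDR = 1.03e-04). Colgalt2, which adds galactose to collagen, fell by 0.76 on the log2 scale (FDR = 1.29e-04), and P3h3, of the prolyl 3-hydroxylase family, by 0.34 (FDR = 0.0209). Plod2, a lysyl hydroxylase, was higher at 0.43 ± 0.07 (FDR = 3.86e-04). P3h3 did not pass with a correction for GC content (-0.20, FDR = 0.115) or with SK-124 mice 4 to 6 (-0.26, FDR = 0.193), nor did Plod2 on log2(TPM + 1) with limma (0.27, FDR = 0.109).

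In the list of procollagen cleavage and crosslinking, 10 of 13 were tested, with 1 higher and 1 lower. Lox, the enzyme that starts crosslinks between collagen chains, measured 2.17, 2.42 and 2.96 CPM in vehicle mice and 3.08, 4.80 and 5.91 CPM in SK-124 mice, without overlap (0.90 ± 0.15, FDR = 2.41e-04). Its relative Loxl1 fell by 0.39 (FDR = 0.0416), a call lost in 12 of 24 alternatives, 8 of which left out 1 mouse (vehicle mouse 3, 4 or 5 or SK-124 mouse 1 to 5; highest FDR of these 0.0864).

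The list of matrix degradation and its inhibitors had 2 higher and 7 lower of 12 tested, with a median log2 fold change of -0.45. The shares were 16.7% and 58.3%, against 10.8% and 13.5% of all genes tested. Adamts5, a protease of proteoglycans, measured 7.53, 9.36 and 12.7 CPM in vehicle mice and 2.30, 2.97 and 3.86 CPM in SK-124 mice (-1.66 ± 0.16, FDR = 5.04e-07). Its relative Adamts4 measured 0.409, 0.574 and 1.47 CPM and then 2.13, 2.68 and 4.16 CPM (2.08 ± 0.27, FDR = 2.07e-05). Neither gene's groups overlapped, and they changed in opposite directions. Timp3, a matrix-bound protease inhibitor, fell by 0.41 (FDR = 0.00235) and Mmp15, a membrane-bound protease, by 0.70 (FDR = 0.00368).

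Of 13 tested receptors for collagen and laminin, 2 were lower (15.4%, close to the 13.5% of all genes tested) and none higher (against 10.8%). These were Lair1, an inhibitory collagen receptor of leukocytes (-1.26 ± 0.33, FDR = 0.01, but 0.0768 with SK-124 mice 4 to 6), and Ddr1, a collagen-activated kinase (-0.17 ± 0.05, FDR = 0.0307), whose call was lost in 12 of 24 alternatives, 7 of which left out 1 mouse (vehicle mouse 2, 4 or 5 or SK-124 mouse 1, 2, 4 or 6; highest FDR of these 0.0788). Lair1 stood beside leukocyte markers, of which Cd68 (-0.60, FDR = 0.00213) and Cd79a (-1.75, FDR = 6.27e-04) were lower among 5 tested of 6, with a summed level of 44.9 to 53.0 CPM in vehicle mice and 46.5 to 54.4 CPM in SK-124 mice and none at 0. Most of that sum was Csf1r (mean 36.8 CPM in vehicle mice and 41.6 CPM in SK-124 mice, log2 fold change 0.18, FDR = 0.0578), whereas Ptprc (-0.29) and Adgre1 (-0.62) had negative values that did not pass, and the median of the 5 was -0.60. Their part in the Lair1 value was not tested.

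Of 14 genes for TGF-beta ligands and the matrix response to them, 2 were higher and 3 lower (14.3% and 21.4%, against 10.8% and 13.5% of all genes tested). The ligand Tgfb2 measured 1.49, 1.84 and 2.57 CPM in vehicle mice and 0.551, 0.719 and 0.818 CPM in SK-124 mice, without overlap (-1.48 ± 0.19, FDR = 1.66e-05). The receptor Tgfbr2 fell by 0.34 (FDR = 0.00266, but 0.0574 with SK-124 mice 4 to 6) and the inhibitor Smad7 by 0.60 (FDR = 7.18e-04). Tgfbi was higher at 0.49 (FDR = 0.0177), while Tgfb1 (0.16) and Ccn2 (0.13) were not called. The median log2 fold change of this list was -0.04, with 6 positive and 8 negative values. Over the 6 lists 7 of 82 tested genes were higher (8.54%, against 10.8% of all genes tested) and 25 lower (30.5%, against 13.5%), with a median log2 fold change of -0.15. The last marker list, distal tubule and collecting duct, had Aqp2 higher (0.75, FDR = 8.52e-04) and Atp6v1b1 lower (-0.21, FDR = 0.00156) of 5, with a summed level of 2900 to 4070 CPM in vehicle mice and 3830 to 4360 CPM in SK-124 mice and none at 0.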

How the data were processed

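The authors deposited 1 table per mouse, made by RSEM, that holds TPM and expected counts (unnormalized estimates of the reads of each gene). According to the submitters' processing notes, FastQC, STAR 2.7.2b, RSEM 1.3.0, DESeq2 and the mm10 build were used. The use of strand is not given in the sources used here. Of the deposited columns, the effective length (other unit) served only the length correction. Of 55401 identifiers, 54349 matched GENCODE M21 with their version, including 50 of the 55 genes, and coordinates are given for those.

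After rounding of the expected counts, TMM scaling and filterByExpr, SK-124 was compared with vehicle by the quasi-likelihood test of edgeR without a block. FDR is the Benjamini-Hochberg adjusted p over all 14159 genes tested. The genes and lists were chosen with earlier results of these data known. Some items that the rule for named genes takes are not reported here, though counts over genes include them. Named are called genes, the 12 most abundant, neighbours within 50000 bases, and up to 4 per list around them with the smallest FDR; further genes, markers among them, were named after their values were seen. Correlations were planned without p-values, which were added.

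Alternatives were RLE, library totals, DESeq2, limma on log2(TPM + 1) and log2(TPM + 0.1), no filter, at least 10 counts in every mouse, a replicate block, a gene length offset and each mouse left out, and, chosen after seeing the data, a GC offset, SK-124 mice 1 to 3 or 4 to 6 and the pair ratios. In simulated data of this comparison over 14159 genes, edgeR recovered 76% of genes changed by 0.5 on the log2 scale and 99% of those changed by 1. Of its calls 4.37% were false. The simulation changed few genes, in equal numbers up and down, and only genes with a mean above 1 CPM. It did not copy the shift in the most abundant genes of SK-124 mice 1 to 3. Its rates need not hold for genes with fewer counts, such as Col24a1, or where many genes change. No 2 libraries of a group looked like duplicates (lowest chi-square per degree of freedom 4.69 over 30 pairs). Tests ran in scipy 1.17.1 (Python 3.11.15), and in DESeq2 1.42.0, limma 3.58.1 and edgeR 4.0.16 (R 4.3.3).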

Additional observations from a re-analysis of the deposited data

Results flagged for a closer look

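Dixon's test, at the 95% level, was run on the CPM of 26 collagen and laminin genes, those of the rule for named genes, within each group of 6 mice, 52 sets in all, of which chance would flag about 2.6. It flagged 3. SK-124 mouse 6 had 44.8 CPM of Col1a2 where the next SK-124 mouse had 30.6, and 42.2 CPM of Col3a1 where the next had 22.8. Vehicle mouse 5 had 18.0 CPM of Col6a3 where the next vehicle mouse had 13.2. Without SK-124 mouse 6 the log2 fold change of Col1a2 was -0.58 and that of Col3a1 -0.70, and without vehicle mouse 5 that of Col6a3 was -0.53.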

How the results depend on the processing

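The 26 collagen and laminin genes of the rule for named genes gave 621 values under the alternatives: 556 stayed on the same side of the threshold, 58 calls were lost, 7 were gained, and no called value changed sign. 26 values of 8 genes that passed in neither fit changed sign. Lama4, Lamb1 and Col6a3 kept their calls in all 24 alternatives, whereas Col4a2 and Col4a4 lost theirs in 12. The number of genes called higher (5) fell to 1 with library totals, to 0 with limma on log2(TPM + 1) and 0 on log2(TPM + 0.1), and to 2 with SK-124 mice 1 to 3. At 0 the limma fits still called 9 and 10 genes lower. Of all genes tested, these 2 fits called 3.53% and 3.52% higher and 15.0% each lower, with medians of -0.11 and -0.14. Library totals called 5.49% of all genes higher and 21.6% lower. The number called lower (10) fell to 5 with SK-124 mice 4 to 6. Leaving out 1 mouse gave 2 to 8 higher, the extremes being without SK-124 mouse 6 and without SK-124 mouse 3, 3 without vehicle mouse 2 or SK-124 mouse 2, and 9 to 12 lower. The median log2 fold change (-0.09) was -0.21 with library totals, -0.00 without a filter and -0.02 with the GC offset. It was -0.16 with SK-124 mice 1 to 3, -0.06 with mice 4 to 6, and -0.06 and -0.17 with the limma fits. With 1 mouse left out it was -0.10 to -0.04 (-0.04 without vehicle mouse 1 or SK-124 mouse 3, -0.05 without vehicle mouse 6). Less the median of all genes in the same fit, it was -0.08 in the main fit, -0.09 with library totals and -0.15 with SK-124 mice 1 to 3. The limma fits gave 0.04 and -0.02 on that measure. Over the 6 lists, the 7 genes called higher became 4 with either limma fit and the 25 called lower became 15 with SK-124 mice 4 to 6, and leaving out 1 mouse gave 6 to 8 higher and 17 to 26 lower. Of 130 values of the 10 ratios, 15 calls were lost and 1 was gained. The cause was not tested, apart from the smaller groups.

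The replicate numbers did not pair the mice: the correlation of deviations of same-numbered mice was -0.106 to 0.168, over 0.1 in 2 of 6, and 2 of 6 mice correlated best with their own number. With the replicate block 6 of the genes were higher and 10 lower, with 1573 higher and 1893 lower among all genes. Depth limits mainly the 14 genes that the filter left out, of which Col11a2 passed without it, and those with few counts, such as Col24a1 (146 over all mice).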
